A study of Homo sapiens with 4 samples.

Results

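The nuclear genes that encode the subunits of the mitochondrial respiratory chain and of ATP synthase were examined in MIA PaCa-2 cells, a human pancreatic carcinoma line, under treatment with neobractatin (NBT) and trametinib. The members were found by gene symbol, with 5 patterns that cover the NDUF, SDH, UQCR, COX and ATP5 families, and hyphenated read-through symbols were left out. They numbered 82 of 16834 genes, with 36 in complex I, 4 in complex II, 9 in complex III, 14 in complex IV and 19 in complex V. NDUFA4 and its paralog NDUFA4L2 were placed in complex IV, where NDUFA4 is now assigned. The symbol patterns do not cover the subunit genes NDUFAB1, COX4I1 and CYC1 or the electron carrier CYCS, which are described separately, and the genes of the mitochondrial genome were not analysed here.

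The cells were left untreated (control) or received 1 µM NBT, a natural compound from the plant Garcinia bracteata, 5 µM trametinib, which blocks the kinase MEK, or both drugs (the combination), in each case for 12 h. Each condition is represented by 1 sequenced library, which makes 4 in all. The labels' cell line field carries a different number for each library, whereas all titles name MIA PaCa-2, and the source field gives an adenoma. The comparisons ask how the single drugs and their joint use differ in their effect on expression.

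Complexes I and II pass electrons from NADH and succinate to ubiquinone, complex III passes them on to cytochrome c, and complex IV reduces oxygen. Complexes I, III and IV pump protons, and complex V, ATP synthase, uses the resulting gradient to make ATP. In each complex a catalytic core carries the redox centres or the ATP-forming sites, and in all but complex II supernumerary subunits build and stabilise the structure around it.

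The libraries were of similar depth, from 18776212 reads (control) to 19614763 reads (combination), as the sum of the estimated counts over genes. With 1 library per condition no value has a replicate check, no test of a condition was possible, and a drug effect cannot be told apart from chance variation of the cultures. The intervals given below are exact binomial (Clopper-Pearson) 95% intervals for the ratio of 2 libraries and cover counting error alone. Reads copied by PCR from 1 molecule are counted as independent. A gene was called where its log2 fold change was at least 0.5 in size, its interval lay on 1 side of 0 and it had at least 50 reads in 1 of the 2 libraries. As a check of the labels, 11 of 11 genes of MAPK output, the pathway that trametinib blocks, were called lower in the trametinib library (median log2 fold change -3.24) and in the combination library (-2.70). The epithelial markers KRT8, KRT18 and EPCAM were present at 3113 or more reads in every library, and 6 of 10 markers of other cell types summed to 78, 59, 218 and 129 reads in the control, NBT, trametinib and combination libraries. Of the 4 epithelial markers, KRT8, KRT18 and KRT7 were called lower in the trametinib and combination libraries (list medians -0.87 and -1.29). Among the markers of other cells CD3E was at 0, 0, 55 and 29 reads in these libraries, and 4 of the 10 on that list were not analysed here. The part of these markers in the results below was not tested.

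Of the 82 members, 79 had at least 50 reads in at least 1 library and 77 in every library. The 3 others were UQCRHL, a near-identical copy of UQCRH (26, 14, 32 and 15 reads in the control, NBT, trametinib and combination libraries), the ATP synthase paralog ATP5MGL (0, 2, 10 and 3 reads) and COX7A1, the heart and muscle isoform of a complex IV subunit (0, 0, 1 and 1 reads). A count of 0 allows a level of up to 0.16 CPM (reads scaled to the library sum) in the control library and 0.154 in the NBT library. For 35 members the estimated counts were not whole numbers (tolerance 0.005), as happens when reads are divided between similar genes. The values of these members are less certain. They include UQCRH, UQCRB, SDHA, SDHD, NDUFB9, NDUFA2, UQCR10, ATP5ME and COX6B2, but not NDUFA4L2, ATP5MC1, ATP5MC3 or NDUFB10.

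The summed level of the members, on the length-scaled TPM scale, was 20870 for the control, 19750 for NBT, 24549 for trametinib and 19466 for the combination. The trametinib library was therefore the highest, 17.6% above the control, and the other treated libraries were below it, at -5.37% (NBT) and -6.72% (combination). All 5 complexes were higher in the trametinib library, by between 15.2% for complex II and 20.2% for complex IV. In the combination library all 5 were lower than in the control on this scale, from -3.39% for complex IV to -10.5% for complex V. For complex IV the direction depended on the measure, as its share of reads was 0.145% in the control and 0.147% in the combination library. The other complexes were lower by that measure too. In the NBT library complex IV was at 4676 TPM against 4673 in the control, and the other complexes were lower, by -2.08% in complex III to -8.54% in complex II. The TPM scale itself was shifted here, with a median log2 fold change with NBT of -0.07 over all genes with enough reads and -0.06 over the members. As a share of reads, complex III was at 0.101% in the control and 0.102% in the NBT library, and complex IV at 0.145% and 0.153%. Complexes I, II and V were lower by this measure too. On the TPM scale complex I summed to 7347 TPM in the control library, complex V to 6615, complex IV to 4673, complex III to 1609 and complex II to 625. Within the complexes the most abundant members of the control library were NDUFB11 in complex I (496 TPM), SDHD, a membrane anchor of complex II (184 TPM), the hinge protein gene UQCRH in complex III (581 TPM), COX6A1, the ubiquitous form of a complex IV subunit (1118 TPM), and ATP5F1B, the catalytic beta subunit of complex V (974 TPM).

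Gene by gene the trametinib library was again most often the highest. Among the 79 members the highest count per library sum (CPM) was with trametinib for 74, with the combination for 4, in the control for 1 and with NBT for 0. The lowest was in the combination library for 36 members, in the control library for 29 and in the NBT library for 14. The median log2 fold change against the control was 0.00 with NBT, 0.27 with trametinib and -0.04 with both drugs, and over all genes with enough reads it was 0.00, 0.06 and 0.02. The middle 50% of members lay between -0.08 and 0.09 with NBT, between 0.17 and 0.37 with trametinib and between -0.14 and 0.11 with both drugs. The medians with trametinib were 0.26 in complex I, 0.19 in complex II, 0.31 in complex III, 0.37 in complex IV and 0.24 in complex V.

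**Figure D1:**
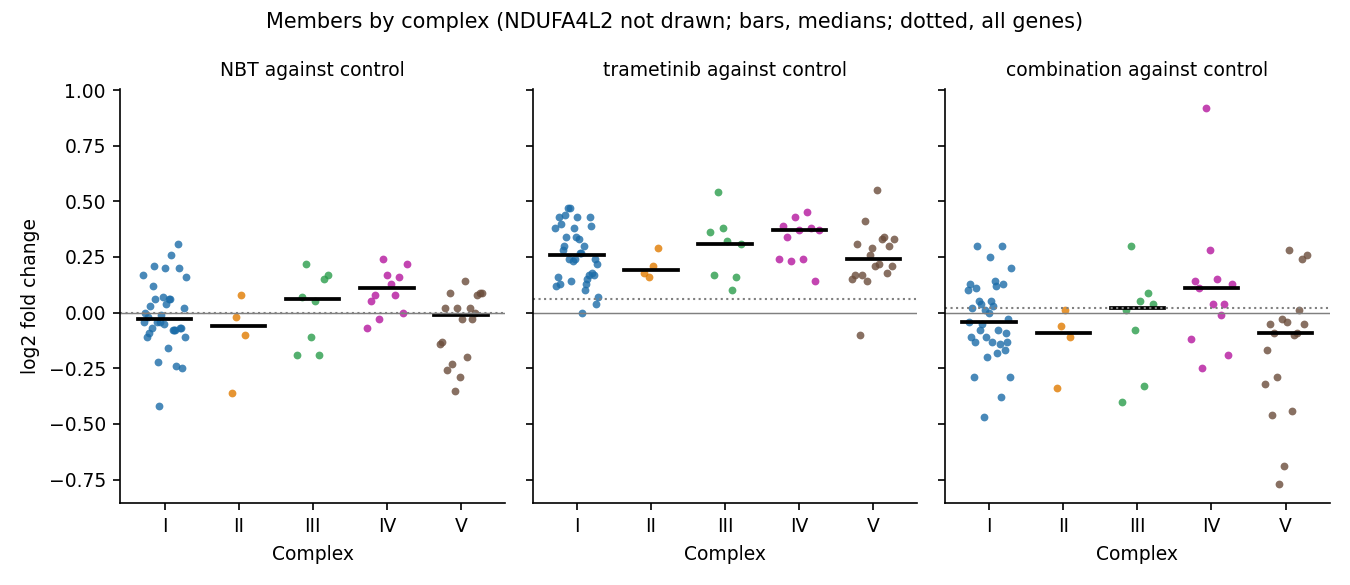
Log2 fold change of each member (points) against the control library, by complex, with NBT, trametinib and the combination; each comparison is between 1 library and 1 library. Bars are medians and dotted lines the median over all genes; with trametinib the complex medians lie between 0.19 and 0.37, and in the other panels between -0.09 and 0.11. NDUFA4L2 lies above the drawn range and is not drawn, but it is in the medians.

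In the trametinib library 77 of 78 members had a log2 fold change above 0, and for 74 the interval lay above 0 (37.4% of all genes tested). The differences were small, and 3 members were called higher (11.6% of all genes tested) and 0 lower (7.48%). Among genes with a mean of at least 500 reads, which are closer to the members in level, 6.34% were called higher and 6.84% lower. Those 3 were ATP5ME, UQCRB and NDUFA4L2, and ATP5ME and UQCRB were no longer called with TMM factors, with median-of-ratios size factors, or when set against genes of similar length. ATP5ME, which encodes the e subunit at the interface of ATP synthase dimers, had 529 reads in the control, 605 in the NBT, 783 in the trametinib and 673 in the combination library. Its log2 fold change with trametinib was 0.55 (interval 0.39 to 0.71), and the trametinib library was the highest of the 4. UQCRB, a subunit of complex III near the quinone site, had 1079, 1298, 1584 and 1387 reads in the same order. All 3 treated libraries were above the control, by 0.22 with NBT, 0.54 (interval 0.43 to 0.65) with trametinib and 0.30 with both drugs.

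At the other end, ATP5F1D, which encodes the delta subunit of the central stalk of ATP synthase, was the only member with an interval below 0 in the trametinib library. It had 2956 reads in the control, 2548 in the NBT, 2791 in the trametinib and 2251 in the combination library, with a log2 fold change of -0.10 with trametinib (interval -0.17 to -0.02). The control library was the highest for this gene, which set it apart from all other members with enough reads. NDUFB9, an accessory subunit of the membrane arm of complex I, was at 2614 and 2644 reads in the control and trametinib libraries (0.00, interval -0.08 to 0.08). NDUFV1, which carries the NADH site of complex I, was at 2475 and 2576 reads (0.04, interval -0.04 to 0.12). The most abundant members were higher by 0.34 (COX6A1, 5262 and 6710 reads), 0.29 (SDHD, 2283 and 2823), 0.23 (NDUFB11, 2687 and 3185), 0.17 (ATP5F1B, 16058 and 18296) and 0.16 (UQCRH, 2807 and 3172).

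Transcript length moved with this difference. The members are short, with a median effective length of 762 bases against 3065 bases over all genes with at least 50 reads in the control library. Among other genes with a mean of at least 500 reads, those of 500 to 1000 bases had a median log2 fold change of 0.14 with trametinib, those of 1000 to 2000 bases 0.07, and those of 2000 to 4000 bases 0.01. The members' medians in the same ranges were 0.28 (33 members), 0.31 (18) and 0.18 (9). Under 500 bases the members were at 0.26 (14) and the other genes at 0.20 (48), so there the gap was smallest. In the range of 500 to 1000 bases 60.3% of the other genes had an interval above 0, as did 31 of the 33 members. The part of transcript length in the members' shift was not tested further.

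**Figure D2:**
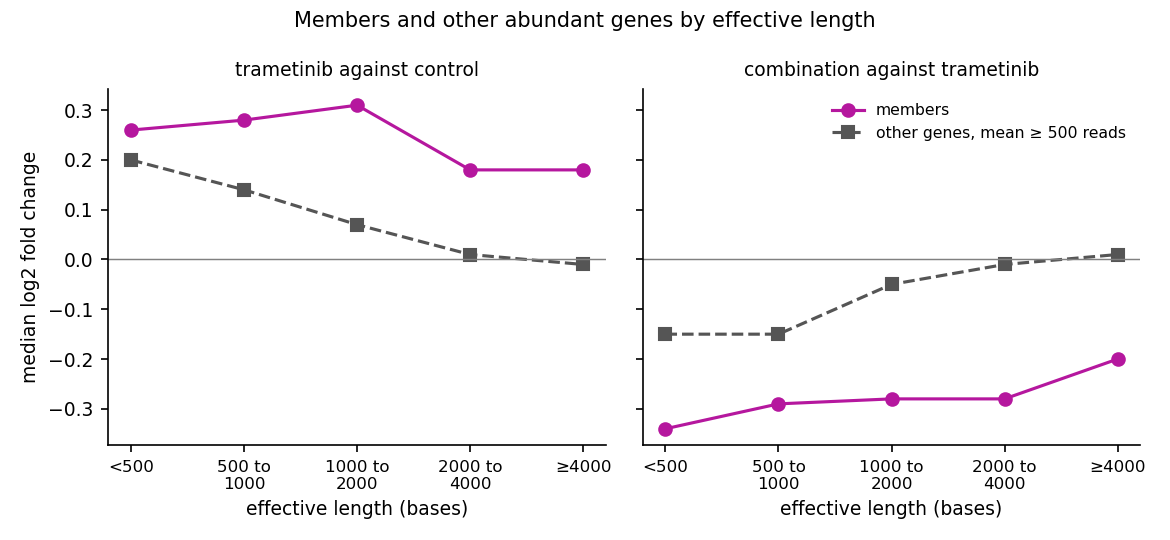
Median log2 fold change (y axis) by effective length in bases (x axis) for members and for other genes with a mean of at least 500 reads, trametinib against control (left) and combination against trametinib (right); each library is 1 sample and there are no error bars. Members lie above the other genes on the left (0.28 against 0.14 at 500 to 1000 bases) and below them on the right (-0.29 against -0.15), and both lines bend with length.

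The promoter of ATP5ME is shown because this gene had the largest difference with trametinib among the subunits proper with at least 50 reads. The sequence is RefSeq's (GRCh38.p14, chr4:674227-674526, minus strand), written 5′ to 3′ from 250 bases before to 50 after the transcript start. Capitals mark exact matches to the NRF1 motif (GCGCA and GCGC with any 1 base between), CCGGAAG (ETS factors such as GABP), AAGATGGCG (YY1), TCAAGGTCA (ERR) and TGACGTCA (CRE), of which the NRF1 and CRE motifs can read the same on both strands.
ATP5ME: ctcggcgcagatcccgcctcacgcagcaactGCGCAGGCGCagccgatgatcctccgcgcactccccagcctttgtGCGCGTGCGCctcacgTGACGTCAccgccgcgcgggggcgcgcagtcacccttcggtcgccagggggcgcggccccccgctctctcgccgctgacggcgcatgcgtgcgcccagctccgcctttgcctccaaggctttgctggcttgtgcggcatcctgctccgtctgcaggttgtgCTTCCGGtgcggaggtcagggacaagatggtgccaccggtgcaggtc
This window holds 2 matches to the NRF1 letters, 1 to the CRE letters and 1 to the ETS letters, the last just after the start. Of 81 windows that belong to 67 of the 82 members, 19.8% held the NRF1 letters on either strand and 25.9% the ETS letters. The YY1 letters were in 12.3%, the ERR letters in 1.23% (1 window) and the CRE letters in 6.17%. Over all 35116 windows these shares were 5.78%, 10.3%, 1.75%, 0.353% and 1.85%. The core of the antioxidant response element, TGANNNNGC, was in 43.2% of the members' windows and in 41.8% of all, and is not marked here. A match describes the letters and not a bound site, and the binding of these factors was not measured here.

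With NBT alone the members spread around 0. Their log2 fold changes were above 0 for 39 of 78 and below it for 39, a split that became 34.6% above 0 on the TPM scale. The interval lay above 0 for 21 members (26.6% of all genes tested) and below 0 for 20 (29.6%). NDUFA4L2 was the 1 member called higher (6.44% of all genes tested), and 0 were called lower (5.77%). The lowest values belonged to NDUFB10, a membrane arm subunit of complex I, at -0.42 (interval -0.52 to -0.33), to SDHA, the flavoprotein that oxidises succinate, at -0.36 (interval -0.44 to -0.29), and to ATP5MC1 at -0.35 (interval -0.45 to -0.25). NDUFB10 had 1880 reads in the control, 1450 in the NBT, 2095 in the trametinib and 1419 in the combination library, so both libraries with NBT were low. SDHA had 3233, 2602, 3697 and 2675 reads in these libraries, and both libraries with NBT were again the low ones. Next to NDUFA4L2, the highest values were those of NDUFS4, an accessory subunit of complex I affected in Leigh syndrome, at 0.31 (534 and 684 reads, interval 0.14 to 0.47), and NDUFC1, a small subunit of the complex I membrane arm, at 0.26 (474 and 586 reads, interval 0.08 to 0.43). By complex the medians ran from -0.06 in complex II to 0.11 in complex IV.

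In the combination library 35 of 79 members were above the control and 44 below it. The interval lay above 0 for 19 (37.1% of all genes tested) and below 0 for 28 (34.7%). NDUFA4L2 and COX6B2 were called higher (15.9% of all genes tested) and ATP5MC1 and ATP5MC3 lower (13.5%). The medians by complex were -0.04 in complex I, -0.09 in complex II, 0.02 in complex III, 0.11 in complex IV and -0.09 in complex V. The 3 lowest members in the combination were ATP5MC1, ATP5MC3 and NDUFB10, and the 3 highest were NDUFA4L2, COX6B2 and NDUFS4.

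ATP5MC1, ATP5MC2 and ATP5MC3 encode the same mature protein, the c subunit of the rotating ring of ATP synthase, behind different targeting peptides. ATP5MC1 had 1754 reads in the control, 1424 in the NBT, 1944 in the trametinib and 1076 in the combination library, or 93.4, 73.3, 103 and 54.9 CPM. Its log2 fold change in the combination was -0.77 (interval -0.88 to -0.66). ATP5MC3 had 2784, 2361, 3443 and 1801 reads in the same order (148, 121, 182 and 91.8 CPM), and its log2 fold change in the combination was -0.69 (interval -0.78 to -0.61). For both genes the trametinib library was the highest, the combination library the lowest and the NBT library between the control and the combination. ATP5MC2, named after its values were seen, had 3775, 3961, 4553 and 3859 reads and a log2 fold change of -0.03 in the combination (interval -0.10 to 0.03), so its combination library was close to the control. On the TPM scale ATP5MC2 was the most abundant of these genes in every library, with 636 TPM in the combination library against 196 for ATP5MC1 and 67.1 for ATP5MC3.

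The promoter of ATP5MC1, the member with the largest decrease in the combination among those with at least 50 reads, is shown from the same RefSeq table (GRCh38.p14, chr17:48892537-48892836, plus strand), with the same motifs in capitals and the antioxidant and hypoxia cores unmarked.
ATP5MC1: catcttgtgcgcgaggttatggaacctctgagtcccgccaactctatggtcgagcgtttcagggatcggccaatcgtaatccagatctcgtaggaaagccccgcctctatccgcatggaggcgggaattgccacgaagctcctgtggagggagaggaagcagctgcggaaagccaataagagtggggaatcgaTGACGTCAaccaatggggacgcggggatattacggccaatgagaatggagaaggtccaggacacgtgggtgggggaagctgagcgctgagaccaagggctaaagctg
Of the marked motifs it holds 1 match, to the CRE letters, upstream of the start. A window was matched for neither ATP5MC3 nor UQCRB.

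NDUFA4L2, a paralog of NDUFA4 that is known as a hypoxia-induced gene and for lowering complex I activity, had the largest change in all 3 treated libraries among the members with at least 50 reads in 1 of the libraries compared. It had 32 reads in the control, 142 in the NBT, 106 in the trametinib and 247 in the combination library, or 1.7, 7.31, 5.59 and 12.6 CPM. The counting intervals of the control (1.17 to 2.41 CPM) and of the combination (11.1 to 14.3) did not overlap those of the single drugs, whereas those of NBT (6.15 to 8.61) and trametinib (4.58 to 6.77) overlapped. The log2 fold changes were 2.08 (interval 1.54 to 2.70) with NBT, 1.70 (1.13 to 2.33) with trametinib and 2.87 (2.35 to 3.46) with both drugs. The combination was also above each single drug, by 1.17 (0.84 to 1.51) over trametinib and 0.78 (0.48 to 1.09) over NBT. NDUFA4 itself, named after its values were seen, had 1731, 2086, 2261 and 1983 reads, with log2 fold changes of 0.22, 0.37 and 0.13. The level of NDUFA4L2 stayed low, at 21.0 TPM in the combination library against 96.5 TPM for NDUFA4.

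The promoter of NDUFA4L2 is shown as that of the member with the largest increase among those with at least 50 reads (RefSeq, GRCh38.p14, chr12:57240713-57241012, minus strand). It was searched also for ACGTG, the core letters of the hypoxia response element, which was added after the data were seen and which 23.5% of the members' windows and 21.4% of all windows held. Capitals here mark matches to any of the motifs, both cores included.
NDUFA4L2: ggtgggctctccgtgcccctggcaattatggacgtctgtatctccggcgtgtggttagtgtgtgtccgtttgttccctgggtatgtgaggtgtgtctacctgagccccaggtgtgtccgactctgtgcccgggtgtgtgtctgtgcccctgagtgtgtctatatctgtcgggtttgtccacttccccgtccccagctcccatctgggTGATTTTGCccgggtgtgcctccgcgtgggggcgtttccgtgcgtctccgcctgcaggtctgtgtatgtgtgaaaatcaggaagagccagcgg
The 1 match is to the core of the antioxidant response element (TGANNNNGC), which 41.8% of all windows hold. The letters of the other motifs are not in this window.

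COX6B2, the testis form of a complex IV subunit, was the other member called higher in the combination. It had 25, 20, 34 and 50 reads in the control, NBT, trametinib and combination libraries, so it met the minimum of 50 reads exactly and in 1 library only. The combination was above the control by 0.92 (interval 0.22 to 1.69) and above NBT by 1.29 (0.53 to 2.14), with these few reads. The ubiquitous COX6B1 had 3523, 3584, 4177 and 3105 reads, and its combination library was the lowest (-0.25, interval -0.32 to -0.18).

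**Figure D3:**
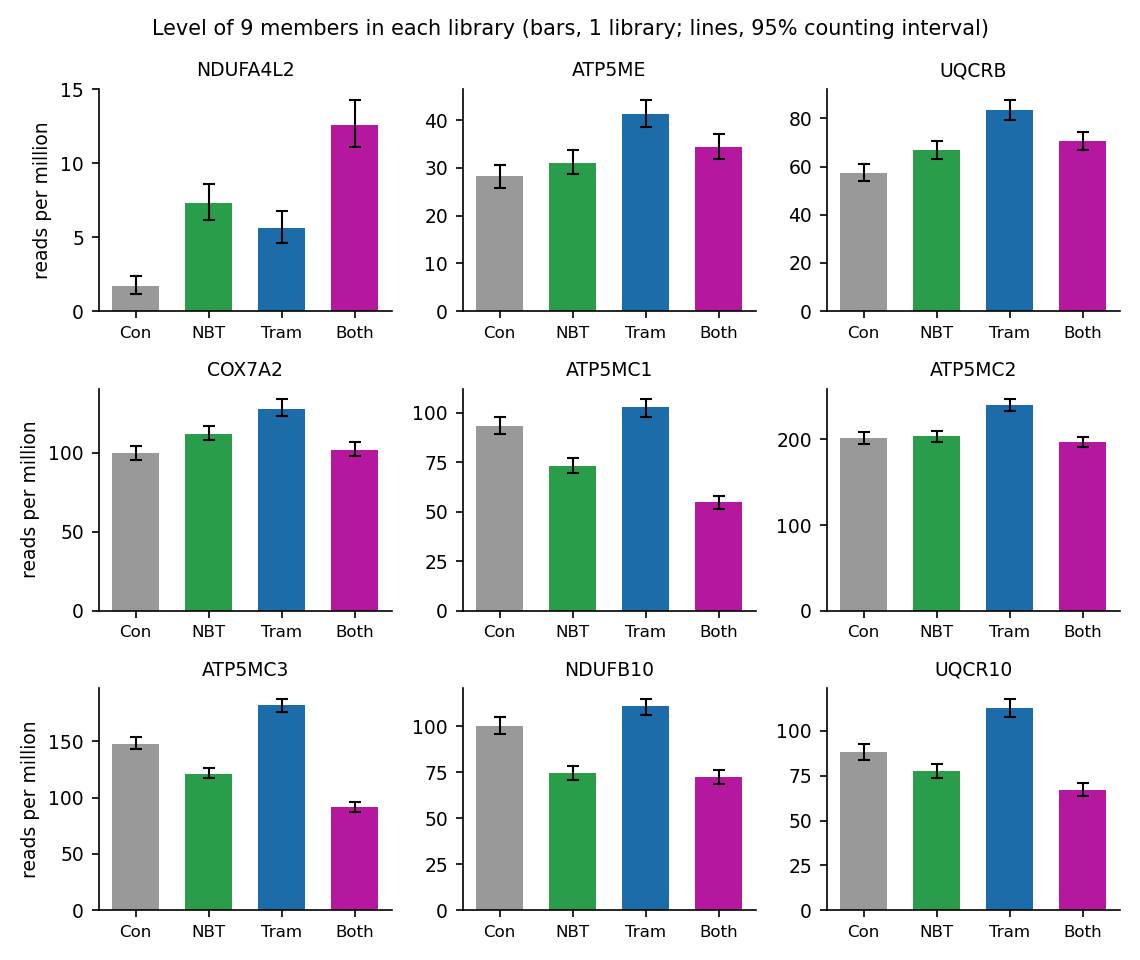
CPM (reads scaled to the library sum; y axis, from 0 in each panel) of 9 members in the control (Con), NBT, trametinib (Tram) and combination (Both) libraries; bars are 1 library each and lines are 95% Poisson counting intervals. NDUFA4L2 is highest with both drugs (12.6 against 1.7 in the control), ATP5MC1 and ATP5MC3 are well below the control there (54.9 against 93.4 and 91.8 against 148), and ATP5MC2 lies close to it (197 against 201).

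The combination library was set against the trametinib library to see what NBT adds in the presence of trametinib. Of the 79 members, 75 were lower in the combination library and 4 higher, with a median of -0.28 (-0.03 over all genes). The interval lay below 0 for 69 members (36.8% of all genes tested) and above 0 for 3 (31.2%). Called lower were 13 members (13.9% of all genes tested) and called higher 1 member, NDUFA4L2 (10.7%). Those called lower were 7 subunits of complex I, with NDUFA2 at -0.69, NDUFB10 at -0.61 and the iron-sulfur subunit gene NDUFS3 at -0.55 among them, SDHA of complex II (-0.52), UQCR10 of complex III (-0.76) and 4 of complex V. The latter were ATP5MC3 (-0.98, interval -1.07 to -0.90), ATP5MC1 (-0.90, interval -1.01 to -0.79), ATP5IF1, the inhibitor of ATP hydrolysis by the enzyme (-0.70), and ATP5MF (-0.66). In complex IV 0 members were called lower, and the lowest was COX6B1 at -0.48. The complex medians lay between -0.25 in complex IV and -0.35 in complex V. Members of 500 to 1000 bases had a median of -0.29 here, and other genes of that length with a mean of at least 500 reads -0.15.

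Against the NBT library, which shows what trametinib adds in the presence of NBT, the members' median was -0.04 (0.02 over all genes), with 29 members above 0 and 50 below. The share above 0 was 36.7%, and 25.3% with TMM factors. NDUFA4L2 and COX6B2 were called higher (8.09% of all genes tested) and 0 members lower (6.61%). The lowest were ATP5MC1 at -0.42 (interval -0.53 to -0.30) and ATP5MC3 at -0.40 (interval -0.49 to -0.31).

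At the log2 limit of 1 that the study used, NDUFA4L2 was the 1 member called higher with NBT (1.44% of all genes tested), with trametinib (3.23%), with the combination (4.56%) and in the combination against trametinib (2.8%). COX6B2 was the 1 member called higher in the combination against NBT (1.83%). At this limit 0 members were called lower in these 5 comparisons, where 0.884%, 2.33%, 4.09%, 3.79% and 2.03% of all genes were.

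The effect of each drug alone and in the presence of the other can be compared over pairs of libraries that share none. Of 77 members with enough reads in all 4 libraries, 49 were higher with trametinib alone and lower when trametinib was given with NBT, 27 were higher in both settings, 1 was lower in both, and 0 were lower and then higher. Over 10659 genes these counts were 1697, 4386, 3260 and 1316. For NBT 36 members were higher without trametinib and lower with it, 39 were lower in both settings, 2 were higher in both and 0 were lower and then higher, and over all these genes the counts were 1412, 4217, 3877 and 1153. All these counts go by sign alone. In the combination against NBT the interval held 0 for 41 of 79 members and lay below 0 for 27 (26.6% of all genes tested). With NBT against the control it held 0 for 37 of 78. Across the 77 members the effects of trametinib without and with NBT had a Pearson correlation of 0.22 and a Spearman correlation of 0.17, against 0.73 and 0.63 over the 10659 genes. For NBT without and with trametinib the correlations over the members were 0.65 and 0.62, against 0.78 and 0.72. These are correlations across genes that share libraries, depth and short length, and genes are not independent replicates. The members' effects also spanned a narrower range, which can by itself lower a correlation. With trametinib the middle 50% lay between 0.17 and 0.37 for members and between -0.16 and 0.28 for all genes. The part of this range in the lower values was not tested.

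The difference between the effect of NBT with and without trametinib, which is also that between the effect of trametinib with and without NBT, was below 0 for 77 of 79 members, with a median of -0.31. Over all genes it was below 0 for 54.1%, with a median of -0.03. It was called lower, at 0.5 or more in size and over 2 counting SE, for 10 members (6.34% of all genes) and higher for 0 (3.58%). The 10 were NDUFA4L2 (-0.92, counting SE 0.33), ATP5MC3 (-0.70, SE 0.06), NDUFA8, NDUFA2, UQCR10, ATP5MC1, COX7B, NDUFB3, NDUFA7 and COX7A2. For NDUFA4L2, which was higher with each drug, the value with both drugs was thus below the sum of the values with each drug on the log2 scale. The members above 0 were NDUFB9 (0.08, SE 0.05) and COX6B2 (0.86, SE 0.53). By complex the median was -0.28 in complex I, -0.24 in complex II, -0.34 in complex III, -0.39 in complex IV and -0.35 in complex V. Short genes in general also lay below 0. Of other genes with a mean of at least 500 reads, 83.3% under 500 bases were below 0. From 500 to 1000 bases 80.8% were, and from 1000 to 2000 bases 62.2%. The members in these ranges were at 100%, 97% and 100%. Members of 500 to 1000 bases had a median of -0.32 and other genes of that length with a mean of at least 500 reads -0.19, and from 1000 to 2000 bases the medians were -0.32 and -0.07. This difference, the comparison of trametinib with the control and that of the combination with trametinib all rest on the single trametinib library, while the comparisons without it gave member medians of 0.00, -0.04 and -0.04.

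**Figure D4:**
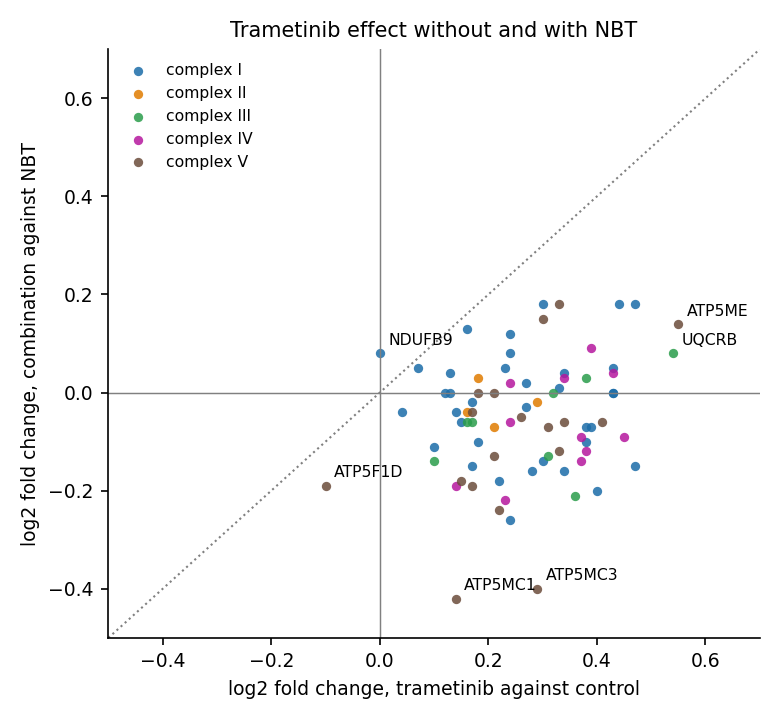
Log2 fold change of trametinib against control (x axis) and of the combination against NBT (y axis) for members with at least 50 reads in all 4 libraries, coloured by complex; the 2 axes share no library and the dotted line marks equal effects. Nearly all points lie right of 0 and under the dotted line, and ATP5MC1 (0.14, -0.42) and ATP5MC3 (0.29, -0.40) lie lowest. NDUFA4L2 has fewer than 50 reads in the control library and is not drawn.

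Subunits of the catalytic core and supernumerary subunits were described apart. In complex V the core class held ATP5F1A, ATP5F1B, ATP5F1C, ATP5F1D and ATP5F1E, the stalk subunits among them included. The c ring genes ATP5MC1, ATP5MC2 and ATP5MC3, and also ATP5PB and ATP5PO, were counted as supernumerary. ATP5MC1 and ATP5MC3 were the members called lower in the combination against the control. How the classes compare with the c ring genes placed in the core was not examined. The 17 core genes had medians of -0.10 with NBT, 0.17 with trametinib and -0.13 with both drugs, and the 58 supernumerary genes 0.03, 0.31 and 0.01. The core class held no gene of complex IV, whose medians of 0.11, 0.37 and 0.11 were the highest of the complexes. The contrast of the classes is thus mixed with that of the complexes. In the combination library 16 of the 17 core genes were below the control, 11 of them with the interval below 0 and 0 with it above, while the supernumerary genes had 16 intervals on each side of 0. Of all genes tested 34.7% had the interval below 0 in this comparison, and of genes with a mean of at least 500 reads 40.3%. None of the core genes was called against the control in any of the 3 treated libraries, so these are values below the limit of 0.5. In complex I the 7 core genes ran from NDUFS3 at -0.38 to NDUFV1 at -0.03 in the combination. In complex V the 5 core genes ran from ATP5F1D at -0.46 (interval -0.54 to -0.38) to ATP5F1C at -0.05. ATP5F1B had 16058, 15221, 18296 and 14917 reads in the control, NBT, trametinib and combination libraries. Its combination library was the lowest, by -0.17 against the control (interval -0.20 to -0.14). In complex II, where all 4 members are core genes, SDHA was at -0.34 and SDHC at 0.01. The difference between the classes was not tested.

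Genes that act beside the subunits were described as separate lists. The 4 genes outside the symbol patterns had medians of 0.03 with NBT, 0.15 with trametinib and -0.07 with both drugs, and 0 were called. CYC1, the cytochrome c1 of complex III, was lowest among them, with 4031, 3346, 4027 and 3115 reads and -0.43 in the combination. Of 15 assembly factors of complex I, NDUFAF2 was called higher with NBT (0.64) and the combination (0.61) and NDUFAF1 with the combination (0.53), and the medians were 0.09, 0.13 and 0.02 with NBT, trametinib and the combination. Of 10 assembly factors of complexes II and III, SDHAF4 was called higher (0.55) and SDHAF1 lower (-0.51) with trametinib, and the medians were -0.04, -0.02 and -0.18. Of 21 assembly factors of complex IV, COX19 was called higher with NBT (0.67) and the combination (0.88), COA7 lower with trametinib (-0.54), and SCO2 (-0.57) and COA3 (-0.55) lower with the combination. The 3 assembly factors of complex V had 0 calls.

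Regulators of mitochondrial biogenesis had a median of -0.27 over 12 tested genes in the trametinib library, with 9 below 0 and 3 above. Of the 12, 4 were called lower (7.48% of all genes tested) and 0 higher (11.6%). These were POLRMT, the mitochondrial RNA polymerase (1960 and 1124 reads, -0.82), the coactivator gene PPRC1 (-0.71), TFB2M, a mitochondrial transcription factor (-0.54), and the nuclear receptor gene ESRRA (-0.51). In the combination the median was -0.36, with PPARGC1B (-0.98), POLRMT (-0.66) and PPRC1 (-0.64) called lower (13.5% of all genes tested). With NBT PPARGC1B alone was called lower (-0.65), beside 5.77% of all genes tested. GABPA, a subunit of the ETS factor GABP, had the highest value with trametinib (619 and 849 reads, 0.44) and was not called. NRF1 had 406, 393, 365 and 376 reads and was not called in any comparison with the control. The difference between the regulators and the subunits was not tested. The 14 genes of the citric acid cycle had medians of -0.15 with NBT, 0.17 with trametinib and -0.16 with both drugs. Of these, OGDH, a subunit of the 2-oxoglutarate dehydrogenase complex, was called lower with NBT (1873 and 1182 reads, -0.71) and the combination (1092 reads, -0.84), and IDH3A with the combination (-0.54). Of all genes tested 5.77% were called lower with NBT and 13.5% with the combination. The carriers of ADP, ATP and phosphate had 0 calls against the control.

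Ribosomal protein genes, which are also short and abundant and were added after their values were seen, served as a comparison. The 78 tested genes of the cytosolic ribosome had medians of 0.19 with NBT, 0.19 with trametinib and 0.18 with both drugs, and -0.02 for the combination against trametinib. They were thus higher in all 3 treated libraries, with 74, 73 and 62 intervals above 0, whereas the subunits of oxidative phosphorylation had 21, 74 and 19. Of all genes tested 26.6%, 37.4% and 37.1% had the interval above 0. The 78 genes of the mitochondrial ribosome had medians of -0.04, 0.06 and -0.10, and of -0.20 for the combination against trametinib, where 9 of the 78 were called lower beside 13.9% of all genes tested. The difference between these lists and the members was not tested.

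**Figure D5:**
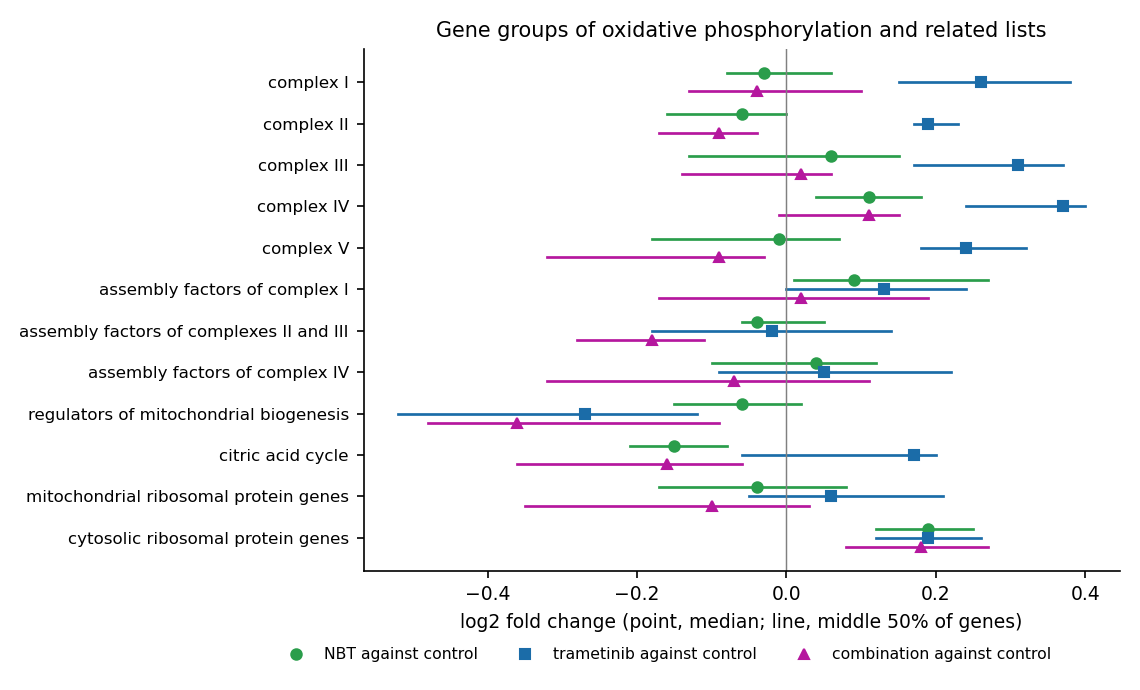
Median log2 fold change against the control library (points; circles NBT, squares trametinib, triangles combination) and middle 50% of genes (lines) for the 5 complexes and related gene lists; 1 library per condition. The complexes lie right of 0 with trametinib (0.19 to 0.37), regulators of mitochondrial biogenesis left of it (-0.27), and cytosolic ribosomal protein genes at 0.18 to 0.19 in all 3 comparisons.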

How the data were processed

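RNA of 4 conditions of MIA PaCa-2 cells, 1 library each, was sequenced on the BGISEQ-500 platform. Per gene and per transcript the authors deposited estimated counts, TPM values (scaled to length and library) and FPKM values (scaled to length and mapped fragments). The submitters' processing notes name Bowtie2 2.2.5, RSEM 1.2.8 and hg38, and per the labels bacterial ribosomal RNA was depleted. Such processing may divide reads between similar genes.

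The deposited estimated counts were rounded, scaled to each library's sum, and compared as log2 ratios with 0.5 reads added. Intervals are 95% Clopper-Pearson intervals. With 1 library per condition no p-value was computed, and no list was tested. Effective length was taken from the deposited counts and FPKM values of the control library, where FPKM was at least 1. The call rule used a log2 limit of 0.5, at least 50 reads in 1 library, and an interval on 1 side of 0. The study's limit of 1 and a limit of 0.32 were alternatives. Other alternatives were edgeR TMM factors, DESeq2 median-of-ratios size factors, TPM and FPKM values with a pseudocount of 0.1, 5 reads added, a minimum of 10 reads or none, summed transcript counts, NDUFA4 and NDUFA4L2 placed in complex I, and structural subunits alone. Added after the data were seen were no fold limit and centring on genes of similar length or with a mean of at least 500 reads. The calling step was tested on simulated Poisson counts with log2 changes of 1 in size or none. These hold no variation between cultures, so they do not show how calls at 0.5 hold between cultures.

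Members and gene lists were chosen with earlier results of these data known. Genes were named by rule: members called against the control, the 3 highest and 3 lowest in each such comparison, the highest control TPM of each complex, the 3 largest departures between the effects of NBT with and without trametinib, and the called and extreme genes of other lists. The other members named were chosen after their values were seen. Promoters, matched by gene ID for 67 of 82 members, are RefSeq's for GRCh38.p14. Python 3.11.15, numpy 2.4.6, pandas 2.3.3, scipy 1.17.1, matplotlib 3.10.9, R 4.3.3, edgeR 4.0.16 and DESeq2 1.42.0 were used.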

Additional observations from a re-analysis of the deposited data

Results flagged for a closer look

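Of the 49 members with the trametinib library above the control and the combination library below the NBT library, 9 are listed here because both counting intervals excluded 0 and the 2 effects differed by at least 0.5 on the log2 scale and by over 2 counting SE. These are 2 estimates of the trametinib effect, each from 1 pair of libraries, and the difference between them was not tested against variation between cultures. The difference, with the effect without and with NBT, was -0.70 for ATP5MC3 (0.29 and -0.40), -0.62 for NDUFA8 (0.47 and -0.15), -0.61 for NDUFA2 (0.40 and -0.20), -0.57 for UQCR10 (0.36 and -0.21) and -0.55 for ATP5MC1 (0.14 and -0.42). It was -0.54 for COX7B (0.45 and -0.09), -0.51 for NDUFB3 (0.24 and -0.26), -0.50 for NDUFA7 (0.34 and -0.16) and -0.50 for COX7A2 (0.37 and -0.14). All 9 differences rest on the single trametinib library. The share of all genes that met these limits was not counted, here or for NBT below. By the difference alone, without the limit on the intervals, 6.34% of all genes were called lower. Of the 36 members in which the effect of NBT was above 0 without and below 0 with trametinib, NDUFA7 and COX7A2 met the same limits. The effect of NBT was 0.21 alone and -0.29 beside trametinib in the former and 0.17 and -0.33 in the latter, a difference of -0.50 in both genes. This was not tested either.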

How the results depend on the processing

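No paired analysis was possible because each condition has 1 library, and for the same reason no replicate could be left out. Of the recomputed counts of called members 97 were within 1.5 times the reported count and 23 were not. Each recomputed median was set against the typical distance from the middle to an end of its genes' counting intervals. Of these medians 256 moved by no more than that distance and 4 by more. Of the values of named members 313 moved by no more than that distance in their own intervals and 11 by more. No median or named value larger in size than that distance changed sign. The count of members higher with trametinib was 1 in place of 3 with TMM factors, with median-of-ratios size factors and with centring on genes of similar length, and NDUFA4L2 was then the member left. With a limit of 1 the counts were 1 higher with trametinib, 1 higher and 0 lower in the combination, 0 lower in the combination against trametinib and 1 higher in the combination against NBT. With a limit of 0.32 they were 3 lower with NBT, 30 higher with trametinib, 10 lower in the combination, 35 lower in the combination against trametinib and 2 lower in the combination against NBT. The share of all genes past a limit of 0.32 was not computed, so these counts have no background beside them. With no fold limit the counts were 21 higher and 20 lower with NBT, 74 higher and 1 lower with trametinib, 19 and 28 in the combination, 3 and 69 in the combination against trametinib, and 11 and 27 in the combination against NBT. The median of complex V with trametinib was 0.17 with TMM factors and 0.16 with centring on genes of similar length, that of complex II was 0.12 with the latter, and that of complex IV in the combination was 0.02 on the TPM scale. The fold limits change the counts by their own construction; for the rest the cause was not tested. The counting intervals leave out variation between cultures, and this limits every value.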

Other observations

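Within 46 members with at least 50 reads in every library and more than 1 transcript, the share of each of 155 transcripts in its gene's TPM was compared between libraries. For 1 transcript the share differed from the control by at least 20 percentage points. This was NM_001184987.1 of NDUFC1, which held 0% of the gene in the control library, 28% with NBT, 20.4% after trametinib and 8.73% for both drugs (0, 163, 117 and 47 estimated reads). The main transcript of the gene, NM_001184989.2, held 86.1%, 67.2%, 69.5% and 83.6%. These shares are the authors' estimates from reads that several transcripts have in common.

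The promoter of SDHD, the most abundant member of complex II in the control library, was the one printed window with matches to the NRF1, ETS and ERR letters together (RefSeq, GRCh38.p14, chr11:112086623-112086922, plus strand, matches to the 5 motifs marked for ATP5ME in capitals).
SDHD: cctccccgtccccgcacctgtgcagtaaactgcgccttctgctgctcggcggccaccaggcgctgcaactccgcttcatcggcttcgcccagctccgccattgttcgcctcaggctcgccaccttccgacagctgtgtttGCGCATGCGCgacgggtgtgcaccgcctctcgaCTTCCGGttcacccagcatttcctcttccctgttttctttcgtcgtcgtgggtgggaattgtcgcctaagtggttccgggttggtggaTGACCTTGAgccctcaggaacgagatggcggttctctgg
The ERR letters lie just after the start, and of the 81 windows of the members this was the only 1 that held them. SDHD had 2283 reads in the control, 2209 in the NBT, 2823 in the trametinib and 2205 in the combination library, and its interval lay above 0 with trametinib (0.21 to 0.37) and below 0 with the combination (-0.20 to -0.03).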
